A study of Zea mays with 6 samples.

Results

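Lipoxygenases (LOX) and OPDA reductases (OPR) of the oxylipin pathway were followed in shoots of maize (Zea mays) seedlings of a line without Gβ and of the wild type. Gβ is a subunit of heterotrimeric G proteins, which relay signals from receptors at the cell surface. The set held 10 genes of the 44146 in the tables. They were 8 lipoxygenase genes (lox1, lox3, lox4, lox5, lox6, lox8, lox9 and lox10) and the 2 reductase genes opr7 and opr8, taken by their B73 RefGen_v4 identifiers from a list named for their pathway. The files give identifiers only, so the names are those of the list that defined the set. All 10 symbols are in the RefSeq gene table of Zm-B73-REFERENCE-NAM-5.0 (lox8 as ts1, tasselseed 1), which paired 0 of the identifiers in the files with a name.

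The knockout libraries, titled KO1 and labelled as a Gβ knockout genotype, came from 3 biological replicates, and the wild-type (WT) libraries from 3. Both genotypes were seedlings at the 3-leaf stage with the roots removed, grown under normal conditions and left untreated. The labels do not say how the knockout was made or in which background, and name a single line, KO1. Effects of Gβ and of anything else in which KO1 differed from WT cannot be told apart. The targeted Gβ gene and markers of leaf and root cells were not analysed here, because no source paired their names with the identifiers.

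Lipoxygenases add oxygen to polyunsaturated fatty acids released from membranes, and plants use the resulting hydroperoxides as precursors of many signals. The 13-LOX enzymes of the chloroplast feed jasmonate synthesis, in which allene oxide synthase and cyclase make OPDA (oxo-phytodienoic acid) and OPDA reductases in the peroxisome carry it towards jasmonic acid. The same branch also supplies green leaf volatiles, the short aldehydes and alcohols that wounded leaves release. The 9-LOX enzymes start a separate branch of oxylipins that in maize is best known from interactions with fungi, nematodes and insects.

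Levels were measured as FPKM, fragments per kilobase of gene scaled to a total set for each library, so genes of different length can be compared. The libraries held 14758012 to 17666150 reads (or read pairs) worked back from the FPKM values, and the 10 genes were covered by 212 to 81045 reads in a library. The totals behind the FPKM values were not these sums of reads. For WT replicate 3 the total was 13500311, against 17042802 reads, which raises its FPKM values. For KO1 replicate 1 it was 19698065, against 17666150 reads, which lowers them. Genotype separated the libraries on the first principal component of 23232 tested genes (69.4% of the variance). KO1 replicate 2 and WT replicate 3 stood apart from the other libraries of their genotypes on the second (20.1%), at 37.8 and 83.8 against -48.6 to -11.6 for the other 4. Values without these libraries are given beside the results that they move most. In bulk tissue, fewer cells of a type and less RNA per cell cannot be told apart.

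In KO1 shoots 3 of the 8 lipoxygenase genes rose (lox3, lox4 and lox9), 1 fell (lox5) and 4 did not pass the test. Of the 2 reductase genes opr8 rose and opr7 did not pass. A call means an adjusted p below 0.05 in limma on log2(FPKM + 1), adjusted over all 23232 tested genes. All 10 members were among the genes tested. Of the 10 members 4 rose, against 15.2% of all tested genes, and 1 fell, against 16.0%. In either direction 5 of the 10 were called, against 31.2%. The median log2 fold change was 0.85 over the 10 members and 0.02 over all tested genes. The genotypes did not overlap in 6 of the 10 members, against 49.4% of tested genes. In 5 members every KO1 library was above every WT library (25.0% of tested genes), and in 1 every KO1 library was below (24.5%).

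**Figure D1:**
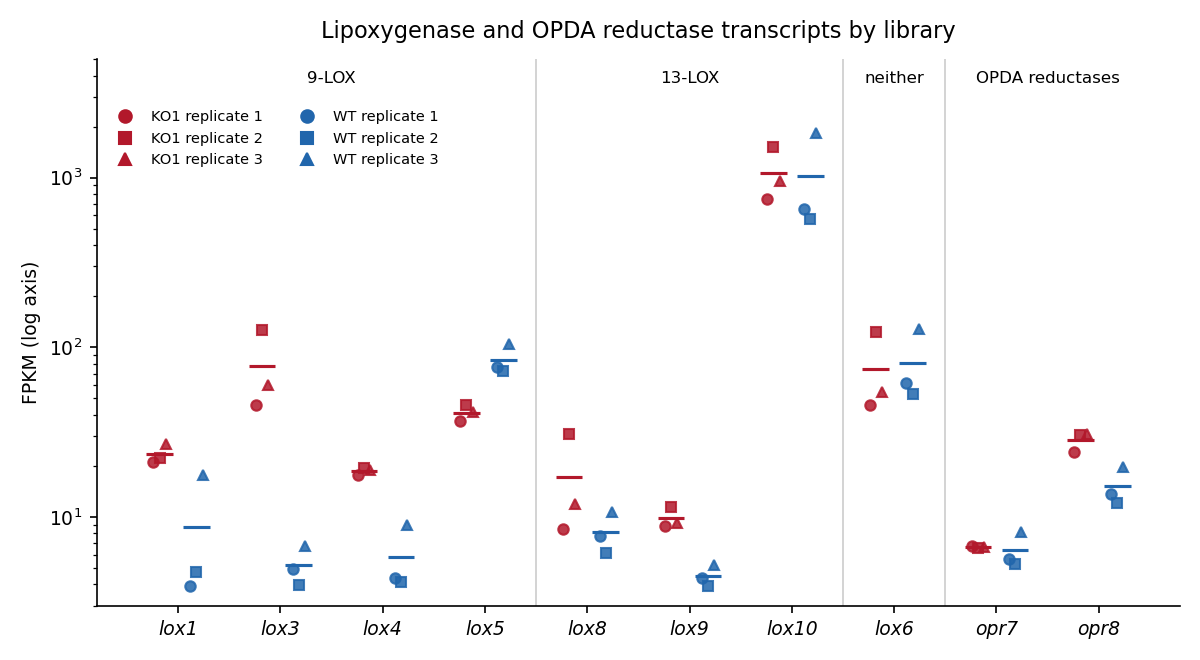
FPKM of the 10 genes in each library on a log axis, with KO1 in red on the left and WT in blue on the right of each gene; symbols mark replicates and bars the genotype means (n = 3 each). The KO1 and WT libraries do not overlap for lox1, lox3, lox4, lox5, lox9 and opr8, and lox10 lies above all other members in every library.

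The largest log2 fold changes of the set were those of the 9-LOX genes lox3, lox4 and lox1, of which lox1 did not pass the test. The 9-LOX gene lox5 changed in the other direction. Its log2 fold change (-0.999) was close in size to that of the 13-LOX gene lox9 (0.97). The lox3 gene (Zm00001d033623) encodes a 9-LOX whose loss has been studied for its effect on fungal and nematode infection. It had 45.7, 127 and 60.2 FPKM in KO1 replicates 1, 2 and 3, against 4.97, 3.97 and 6.76 FPKM in WT replicates 1, 2 and 3. Every KO1 library was several times above every WT library, and KO1 replicate 2 was the highest. The means were 77.7 ± 43.5 FPKM in KO1 and 5.23 ± 1.41 FPKM in WT (SD, n = 3 each), a 14.9-fold ratio of means. The log2 fold change was 3.55 ± 0.40 (SE; limma adjusted p = 0.00156), with a 95% interval of 2.59 to 4.50, and was 3.13 without KO1 replicate 2 (limma adjusted p = 0.00171, in a range of 4.97e-06 to 0.0104 over 18 alternatives). The reads behind these values numbered 3573, 7842 and 4276 in KO1 and 278, 242 and 362 in WT.

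The lox4 gene (Zm00001d033624) encodes a 9-LOX very close to that of lox3 in sequence, and the RefSeq table lists no gene between lox3 and lox4. It reached 17.8, 19.5 and 19.0 FPKM in KO1, against 4.37, 4.16 and 8.93 FPKM in WT. The KO1 libraries lay close together, and WT replicate 3 was the WT library nearest to them. The lox4 transcript averaged 18.8 ± 0.90 FPKM in KO1 and 5.82 ± 2.70 FPKM in WT (SD, n = 3 each), with a log2 difference of 1.60 ± 0.27 (SE; limma adjusted p = 0.007). As close copies, lox3 and lox4 may share reads, and the sources used here do not state how such reads were counted.

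The balance within this pair differed between the genotypes. The ratio of lox3 to lox4 FPKM was 2.57, 6.51 and 3.17 in KO1, against 1.14, 0.95 and 0.76 in WT. In WT the pair was thus nearly level per length, while in KO1 lox3 was the higher of the pair in every library. The groups did not overlap. FPKM divides by a gene length of 3968 bases for lox3 and 6244 bases for lox4, as worked back from the values, and in reads lox4 exceeded lox3 in every WT library (385, 399 and 753 reads of lox4 in WT).

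The lox5 gene (Zm00001d013493), which encodes a 9-LOX described in leaf defence against insects, was the 9-LOX gene of the set that fell. It had 36.8, 45.5 and 41.5 FPKM in KO1, against 76.2, 72.2 and 104 FPKM in WT. All KO1 libraries were below all WT libraries, with WT replicate 3 the highest. Its means were 41.3 ± 4.34 FPKM in KO1 and 84.3 ± 17.6 FPKM in WT (SD, n = 3 each), or -0.999 ± 0.21 on the log2 scale (SE; limma adjusted p = 0.0133). The call was lost without KO1 replicate 1 (limma adjusted p = 0.0592) or KO1 replicate 3 (0.056), within a range of 0.000184 to 0.0592 over 18 alternatives. The direction held in all 18.

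The lox1 gene (Zm00001d042541) encodes a lipoxygenase described as having dual positional specificity and is counted here with the 9-LOX genes. It reached 21.0, 22.4 and 26.9 FPKM in KO1, against 3.94, 4.74 and 17.6 FPKM in WT. The groups did not overlap, but WT replicate 3 lay about as near to the KO1 libraries as they lay to each other. The log2 fold change was 1.59 ± 0.50 (SE; limma adjusted p = 0.0551; 95% interval 0.38 to 2.80) and did not pass the test. Without WT replicate 3 it was 2.19 with a limma adjusted p of 0.000656, and the adjusted p ran from 4.1e-05 to 0.157 over 18 alternatives. In RefSeq lox1 adjoins lox2, a close copy, so its reads may also be shared.

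These shifts changed which gene dominated among the 9-LOX genes of the set. The lox5 transcript made up 30.3%, 21.2% and 28.1% of the summed 9-LOX FPKM (lox1, lox3, lox4 and lox5) in KO1, against 85.2%, 84.9% and 75.8% in WT. The share of lox3 was 37.7%, 59.3% and 40.8% in KO1, against 5.55%, 4.67% and 4.91% in WT. Among these genes lox3 was the most abundant in every KO1 library, and lox5 in every WT library. Other lipoxygenase genes of maize were not in the set and are missing from the sums. The ratio of lox5 to lox3 was 0.81, 0.36 and 0.69 in KO1, against 15.3, 18.2 and 15.4 in WT. The sum itself was 121, 215 and 148 FPKM in KO1 and 89.5, 85.1 and 138 FPKM in WT, and the genotypes overlapped.

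**Figure D2:**
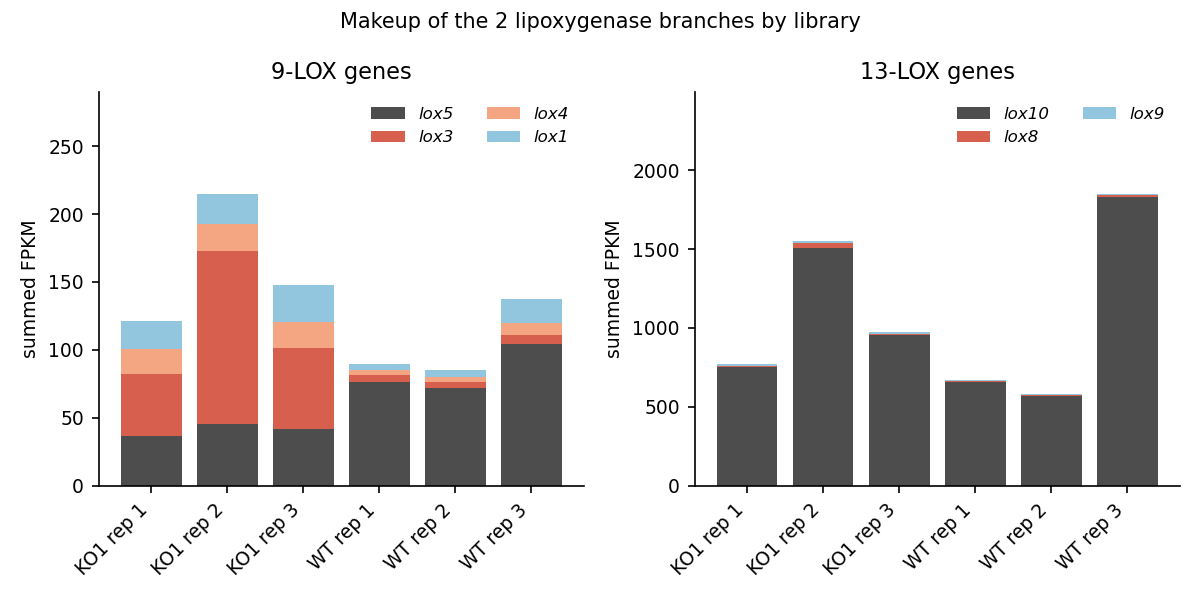
Summed FPKM of the 9-LOX genes (left panel) and the 13-LOX genes (right panel) of the set in each library, KO1 before WT, with each gene's part in its own colour. The lox5 part, 75.8% to 85.2% of the 9-LOX sum in WT, is 21.2% to 30.3% in KO1, where lox3 is the largest part, and lox10 fills nearly all of the 13-LOX sum in every library.

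Among the 13-LOX genes of the set, 1 of 3 rose and the most abundant one did not pass the test. The lox9 gene (Zm00001d027893), a close relative of lox8, had 8.82, 11.4 and 9.19 FPKM in KO1, against 4.36, 3.93 and 5.19 FPKM in WT. The lowest KO1 library was above the highest WT library. It averaged 9.80 ± 1.39 FPKM in KO1 and 4.49 ± 0.64 FPKM in WT (SD, n = 3 each), or a log2 difference of 0.97 ± 0.17 (SE; limma adjusted p = 0.00734). The lox9 call held in all 18 alternatives, with an adjusted p of at most 0.0423.

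The lox8 gene (Zm00001d003533), or ts1, encodes a chloroplast 13-LOX that makes jasmonate in the developing tassel, where its loss turns male flowers into female ones. It had 8.46, 30.9 and 11.9 FPKM in KO1, against 7.77, 6.15 and 10.7 FPKM in WT. KO1 replicate 2 was high and KO1 replicate 1 lay among the WT libraries. The log2 difference of 0.80 ± 0.46 (SE; limma adjusted p = 0.235; 95% interval -0.32 to 1.92) did not pass, and was 0.29 without KO1 replicate 2. The ratio of lox8 to lox9 was 0.96, 2.71 and 1.30 in KO1 and 1.78, 1.56 and 2.06 in WT, with overlap.

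The lox10 gene (Zm00001d053675) encodes the 13-LOX that supplies green leaf volatiles in maize leaves. It was the most abundant member in every library, at rank 30 of 44146 genes by mean FPKM in KO1 and rank 53 in WT. Its levels were 753, 1507 and 953 FPKM in KO1, against 657, 570.1 and 1832 FPKM in WT. The highest single FPKM value was that of WT replicate 3, KO1 replicate 2 came next, and the genotypes overlapped. As a share of the worked-back reads of its library, lox10 was at 0.476% in WT replicate 3 and 0.479% in KO1 replicate 2. The means were 1071 ± 391 FPKM in KO1 and 1019.8 ± 705 FPKM in WT (SD, n = 3 each). The log2 fold change was 0.22 ± 0.55 (SE; limma adjusted p = 0.794) with a 95% interval of -1.10 to 1.54, which spans a ratio of 0.47 to 2.90.

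Leaving out single libraries moved the lox10 value across 0. It was 0.75 without WT replicate 3, -0.06 without KO1 replicate 2 and -0.10 without WT replicate 2. Without both libraries that stood apart it was 0.47 (limma adjusted p = 0.0779, in a range of 0.0736 to 0.996 over 18 alternatives), with 753 and 953 FPKM in KO1 against 657 and 570.1 FPKM in WT.

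Because lox10 made up 97.3% to 97.8% of the 13-LOX sum in KO1 and 98.2% to 99.1% in WT, that sum followed lox10. It was 770.4, 1549 and 974 FPKM in KO1 and 669, 580.2 and 1848 FPKM in WT. The remaining 13-LOX genes of the set, lox8 and lox9 together, reached 17.3, 42.3 and 21.1 FPKM in KO1 and 12.1, 10.1 and 15.9 FPKM in WT, without overlap. The log2 difference of the whole 13-LOX sum was 0.23, with 0.76 without WT replicate 3 and -0.047 without KO1 replicate 2.

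Set against each other, the 13-LOX sum was 6.35, 7.22 and 6.60 times the 9-LOX sum in KO1, and 7.48, 6.82 and 13.4 times in WT. Apart from WT replicate 3, where the FPKM of lox10 was highest, the libraries of both genotypes fell between 6.35 and 7.48. On the log2 scale the KO1 mean of this ratio lay below the WT mean by a difference of -0.39, against a replicate SD of 0.38. It was -0.089 without WT replicate 3 and -0.14 without both libraries that stood apart. Its sign depended on single genes, since without lox3 in the 9-LOX sum the difference was 0.44, and without lox10 in the 13-LOX sum it was 0.37. Outside WT replicate 3, with its ratio of 13.4, similar ratios thus coincided with a different makeup of the 9-LOX sum in KO1 and WT.

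The lox6 gene (Zm00001d002000) belongs to neither branch, as its enzyme has been described as cleaving hydroperoxides instead of forming them. It had 45.8, 123 and 54.9 FPKM in KO1, against 61.5, 53.1 and 128 FPKM in WT. The same libraries were high as for lox10, KO1 replicate 2 and WT replicate 3, and the genotypes overlapped. The log2 fold change was -0.14 ± 0.49 (SE; limma adjusted p = 0.852; 95% interval -1.31 to 1.03), and its sign changed in 5 of 18 alternatives. It was -0.57 without KO1 replicate 2, 0.24 without WT replicate 3 and -0.18 without both.

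**Figure D3:**
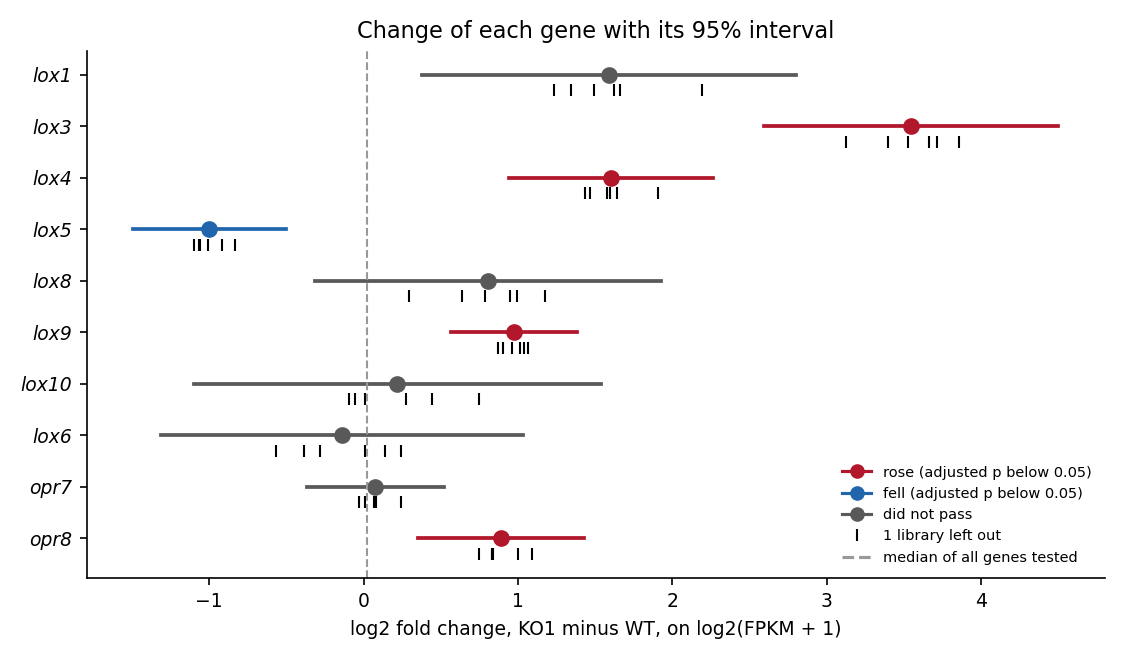
Log2 fold change of each gene (KO1 minus WT, on log2(FPKM + 1)) with its 95% interval from limma; ticks under each interval give the value with each library left out in turn, and the dashed line is the median of all tested genes. The intervals of lox3, lox4, lox9 and opr8 lie above 0 and that of lox5 below; lox1 also lies above 0 but its adjusted p was 0.0551.

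The OPDA reductases opr7 and opr8 are a pair of closely related enzymes that can stand in for each other, and maize lacking both is deficient in jasmonate. The opr8 gene (Zm00001d050107) had 24.1, 30.5 and 30.9 FPKM in KO1, against 13.7, 12.0 and 19.8 FPKM in WT. Every KO1 library was above every WT library, and WT replicate 3 came nearest. Its means were 28.5 ± 3.79 FPKM in KO1 and 15.2 ± 4.12 FPKM in WT (SD, n = 3 each), or a log2 difference of 0.89 ± 0.22 (SE; limma adjusted p = 0.0262).

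The opr8 call was lost without KO1 replicate 2 (limma adjusted p = 0.0648), KO1 replicate 3 (0.0976), WT replicate 1 (0.0908) or WT replicate 2 (0.0796). The adjusted p ran from 0.000144 to 0.0976 over 18 alternatives, and the log2 fold change stayed between 0.75 and 1.14. The size of the opr8 difference moved little where the call was lost.

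The opr7 gene (Zm00001d032049) had 6.71, 6.55 and 6.64 FPKM in KO1, against 5.65, 5.29 and 8.11 FPKM in WT. The KO1 libraries were almost level and lay inside the range of the WT libraries. The log2 difference of 0.07 ± 0.18 (SE; limma adjusted p = 0.792) did not pass, and its 95% interval of -0.37 to 0.52 spans a ratio of 0.77 to 1.43.

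The opr8 transcript was above that of opr7 in all 6 libraries, by a ratio of 3.60, 4.65 and 4.66 in KO1 and 2.42, 2.27 and 2.44 in WT. The ratio was similar among the WT libraries, including replicate 3, and higher in every KO1 library. FPKM divides by a gene length of 3617 bases for opr7 and 1693 bases for opr8, as worked back from the values. In reads the pair was closer to level in WT, at 326, 312 and 453 for opr8 and 288, 294 and 396 for opr7. The KO1 reads were 805, 801 and 937 for opr8 and 478, 368 and 430 for opr7. Together the reductases reached 30.9, 37.0 and 37.6 FPKM in KO1, against 19.3, 17.3 and 27.9 FPKM in WT. No KO1 library fell within the WT range. As closely related copies, opr7 and opr8 may share reads.

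**Figure D4:**
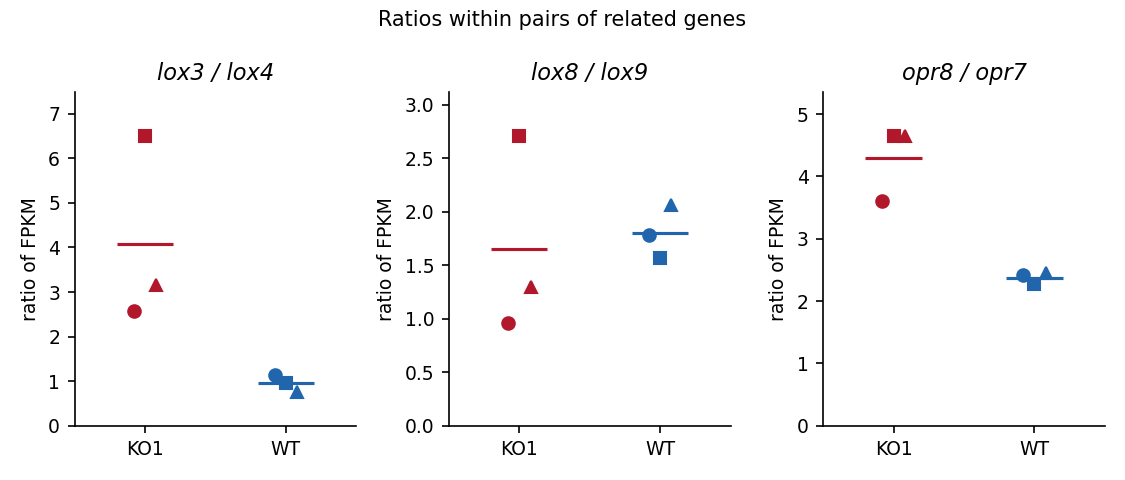
Ratio of FPKM within 3 pairs of related genes in each library, KO1 in red on the left and WT in blue on the right; symbols mark replicates and bars the means (n = 3 each). The ratios of lox3 to lox4 and of opr8 to opr7 are higher in every KO1 library than in any WT library, while those of lox8 to lox9 overlap.

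Libraries of the same genotype differed most for lox10, lox6, lox8, lox1 and lox3. In WT replicate 3 the FPKM of every member was above that in WT replicates 1 and 2. The excess over the mean of those 2 libraries was 4.06-fold for lox1, 2.99-fold for lox10, 2.24-fold for lox6 and 2.09-fold for lox4. The other members were 1.25-fold to 1.55-fold higher there, against a median of 1.03 over all tested genes. A ratio as high as that of lox1 was found in 3.03% of tested genes, and one as high as that of lox10 in 5.47%.

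In KO1 replicate 2 the excess over the other KO1 libraries was 3.03-fold for lox8, 2.45-fold for lox6, 2.40-fold for lox3 and 1.77-fold for lox10. There lox1, lox4, lox5, lox9, opr7 and opr8 were at 0.93 to 1.27 times the other KO1 libraries. The median over all tested genes was 1.02. Ratios as high as those of lox8, lox6, lox3 and lox10 were found in 3.04%, 5.51%, 5.78% and 12.6% of tested genes. The genes that were high in the library standing apart were therefore partly shared between the genotypes (lox6 and lox10) and partly not. The lox1 transcript was high in WT replicate 3 and not in KO1 replicate 2. The labels give no harvest time or batch for these libraries, and the source of the differences was not tested.

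**Figure D5:**
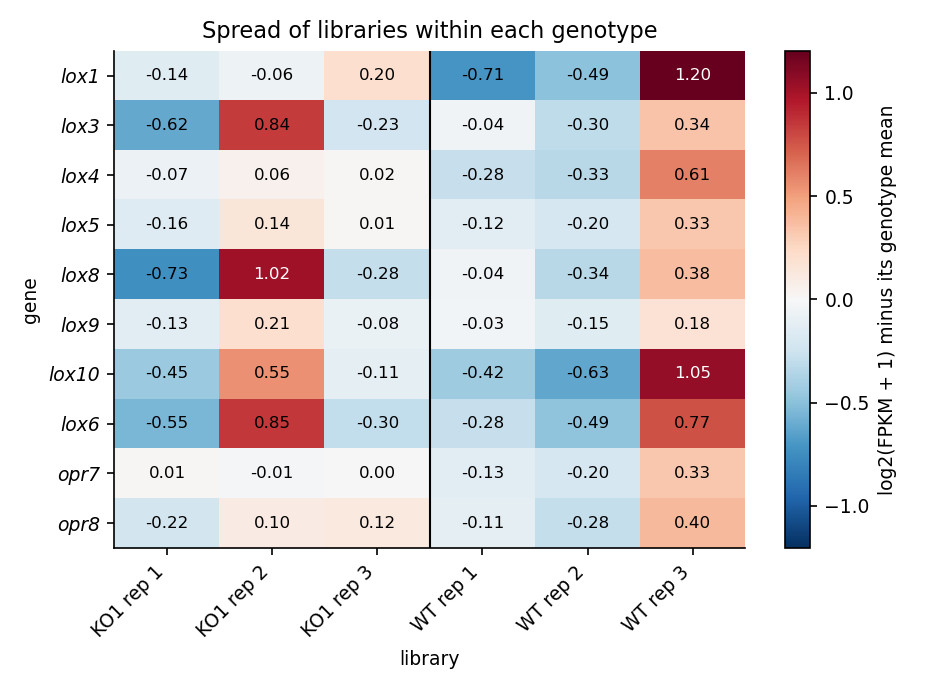
Departure of each library from its genotype mean on log2(FPKM + 1), for the 10 genes (rows) in the KO1 and WT libraries (columns). WT replicate 3 is above its genotype mean for all 10 genes, most for lox1 (1.20) and lox10 (1.05), and KO1 replicate 2 is highest for lox8 (1.02), lox6 (0.85) and lox3 (0.84).

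Likeness of pattern between members across the 6 libraries was measured as the root mean square difference of log2(FPKM + 1) after centring each gene. The closest pair was lox9 with opr8, at 0.15, both of which were higher in every KO1 library with little spread. Next came lox6 with lox10, at 0.28, and lox1 with lox4, at 0.32. The rest had a closest member that was itself nearer to another. The lox3 pattern was closest to lox4 at 1.06, lox8 to lox9 at 0.44, opr7 to opr8 at 0.43 and lox5 to opr7 at 0.54. Some other transcripts were closer: 202 tested genes (0.87%) were nearer to lox9 than opr8 was, and 251 (1.08%) nearer to lox10 than lox6 was. For lox1 61 (0.263%) were nearer than lox4, and for lox3 1316 (5.66%) were nearer than lox4. For lox5 8208 (35.3%) were nearer than opr7, and for opr7 10841 (46.7%) were nearer than opr8. Around the members, 29 other identifiers lie within 2 numbers of one in the identifier order. Of the 19 that were tested 2 rose and 3 fell, against 15.2% and 16.0% of all tested genes.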

How the data were processed

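RNA from seedling shoots was sequenced as 150 bp paired reads, per the labels' design text. TopHat2, Cufflinks, Cuffdiff and the build B73 RefGen_v4 are named in the submitters' processing notes. Their versions, the annotation, any filters and the strandedness: not given in the sources used here. From each library the authors deposited 1 table of FPKM values, the unit being inferred from these tools and the values.

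Reads per gene were worked back from the steps in the FPKM values. Whole numbers within 0.001 were found for all 31946 genes above 0, and whole-number gene lengths for 97.2% at the first pass. For opr7 the smallest whole numbers were doubled to give a whole length.

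Groups came from the titles. Genes reaching 1 FPKM in 3 or more libraries (23232) were tested with limma 3.58.1 in R 4.3.3 on log2(FPKM + 1), with trend and robust empirical Bayes, two-sided, Benjamini-Hochberg adjusted. Folds on this scale understate those of weak genes. The 95% intervals are unadjusted. All 10 members are named, whatever their values. The member list uses no measured value in its rule, but it and the other lists were drawn up with earlier results of these data known. P-values set the difference of the genotype means against the spread between these libraries, as moderated over all tested genes. They rest on these libraries only. Branch sums and ratios have no test. Other lipoxygenase and jasmonate genes were not analysed here, because no source paired their names with identifiers. The branch sums therefore hold only the members. Sums and figures used Python 3.11.15.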

Additional observations from a re-analysis of the deposited data

How the results depend on the processing

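The 18 alternatives covered the pseudocount, filter, scaling, variance model, library weights, a replicate block, libraries left out, and voom on worked-back reads. The voom fit and the sums without lox3 or lox10 were added after seeing the data. The calls of lox3, lox4 and lox9 held in all 18. Equal summed FPKM put the median tested gene at 0.24 (log2), lox5 at -0.75 and opr8 at 1.14, and split all calls into 4478 rising and 2643 falling. There and after quantile normalization, with library weights, without WT replicate 3, without both libraries that stood apart and with voom, lox1 also passed (lox8 with weights as well).

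With a replicate block 4 members rose (lox1 passed and opr8, at a limma adjusted p of 0.0552, did not) and 0 fell (lox5 had a limma adjusted p of 0.0557). Same-numbered libraries deviated with correlations of 0.15, -0.37 and -0.20, and for no KO1 library was the correlation highest with the WT library of its number, so the numbers are not taken as pairs. With a single library omitted, 3 to 5 members rose and 0 to 1 fell. Over all genes such fits made 4212 to 8614 calls (2021 to 4197 rising and 2191 to 4417 falling), against 7238 (3531 and 3707). The block gave 4579 (2171 and 2408), weights 14976 (7501 and 7475), and the 4 libraries without those that stood apart 11952 (5894 and 6058). Where tested genes needed a mean of 5 FPKM, 2105 rose, of fewer tested. The causes of the other shifts were not tested.

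Signs turned for 3 genes that did not pass. The lox6 value was 0.11 at equal summed FPKM, 0.10 after quantile normalization, and -0.57 to 0.24 with libraries left out (0.14, 0.0079 and 0.24 without KO1 replicate 1, KO1 replicate 3 and WT replicate 3). The lox10 value was -0.096 to 0.75 with libraries left out (-0.058 without KO1 replicate 2 and -0.096 without WT replicate 2). The opr7 value was -0.027 (without WT replicate 2) to 0.25 with libraries left out, and 0.30 at equal summed FPKM.

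The log2 difference of the 9-LOX sum (0.63) was 1.44 as a mean of log2(FPKM + 1) per gene and -0.21 without lox3, and 0.40 to 0.84 with libraries left out. That of the 13-LOX sum (0.23) was 0.997 without lox10 and -0.081 (without WT replicate 2) to 0.76 (without WT replicate 3), with -0.047 without KO1 replicate 2. The difference of their ratio (-0.39) was 0.44 without lox3, 0.37 without lox10, -0.58 without WT replicate 2, -0.089 without WT replicate 3 and -0.14 without both libraries that stood apart.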
